A study of Mus musculus with 6 samples.

Results

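Otx2, Pou3f1, Sox3, Zic2, Foxd3 and Tcf15 encode transcription factors of the formative epiblast, and their expression was followed in mouse embryonic stem cells that carried hairpins against Jmjd1c, a gene of the JmjC histone demethylase family. The 6 genes were chosen by name among the 18193 genes that had a probe set of their own on the array, and all 8 probe sets annotated to 1 of them alone were used. RNA came from J1 cells, an embryonic stem cell line, infected with a pLKO.1 lentivirus that carried shJmjd1c#3, shJmjd1c#4 or the non-targeting shNT, with 2 arrays in each of the 3 groups. Control cells were therefore also infected, selected with puromycin (1.5 ug/ml for 2 days) and kept in 15% serum with 1000 U/ml of leukemia inhibitory factor (LIF), a cytokine that holds stem cells undifferentiated. In all 3 groups selection began 1 day after infection, and cells were cultured for 4 days after replating. The labels describe the controls as wild type and the others as Jmjd1c knockdown, and name no clones. The arrays of a group are biological duplicates per the labels.

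Mouse embryonic stem cells in serum and LIF move between a naive state, close to the preimplantation epiblast, and states that resemble the epiblast just after implantation. In that formative state Otx2 and Pou3f1 are induced while naive factors decline, and cells become able to respond to signals for germ layers. The 6 factors belong to different families. Otx2 is a homeodomain protein later needed for the head and anterior brain, and Pou3f1, also called Oct6, is a POU-domain protein of the epiblast, neural progenitors and Schwann cells. Sox3 is an HMG-box protein of the SoxB1 group, close to Sox2, and Zic2 is a zinc finger protein that acts at enhancers in stem cells and in neural development. Foxd3 is a forkhead protein required by the early epiblast and the neural crest. Tcf15, also called paraxis, is a basic helix-loop-helix (bHLH) protein that marks stem cells primed for differentiation and later the somites. Id proteins hold such bHLH factors inactive.

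Values are array signals made with MAS5, on a linear scale, and differences are given as log2(signal + 16). Arrays had a median signal of 69.3 to 81.3, and all 6 member genes passed the filter on dim genes, which asked for a mean signal of about 40.1. Pou5f1, a defining gene of pluripotent cells, read 9281 to 10932 in the knockdown arrays and 9069 and 11587 in the shNT arrays. At the targeted gene the 3 probe sets disagreed. The brightest, 1426900_at (mean shNT signal 5788), was at 73.5% of shNT in the knockdown arrays. The dimmer 1448049_at and 1439998_at (mean shNT signals 371 and 235) were at 191% and 172%. By limma with Benjamini-Hochberg adjustment over all probe sets none passed (adjusted p = 0.358, 0.117 and 0.439). With the replicate number as a block 1448049_at passed as higher (log2 difference 0.90, adjusted p = 0.0127 by limma). With that block 1426900_at, which was lower, and 1439998_at did not pass (adjusted p = 0.0745 and 0.197 by limma). Knockdown therefore names the cells as labelled, not a measured loss of the transcript. The ratio of 3' to 5' Gapdh signal, a measure of RNA integrity, was 1.30, 1.33 and 1.38 in the replicate 1 arrays of shJmjd1c#3, shJmjd1c#4 and shNT. In the replicate 2 arrays it was 1.47, 1.49 and 1.68. The same ratio for Actb was 2.26 and 2.40 in shJmjd1c#3 (replicates 1 and 2), 2.80 and 2.81 in shJmjd1c#4, and 2.70 and 2.77 in shNT.

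Pou3f1 had the largest difference among the 6 genes. Its brighter probe set, 1460038_at, read 3622 and 2432 in shJmjd1c#3 cells and 2921 and 1444 in shJmjd1c#4 cells, against 1548 and 784 in shNT cells (replicates 1 and 2). Of the 4 knockdown arrays, 3 lay above both controls, and replicate 2 of shJmjd1c#4 lay just under replicate 1 of shNT. The means were 2605 ± 915 in knockdown cells (SD, n = 4) and 1166 ± 540.4 in shNT cells (SD, n = 2), a ratio of 2.23. The mean of both hairpins differed from shNT by 1.15 on the log2 scale (SE 0.32, 95% interval 0.42 to 1.89), which did not pass over all genes (adjusted p = 0.197 by limma with Benjamini-Hochberg adjustment). With the replicate number as a block, a fit that compares same-numbered arrays, the difference passed (SE 0.11, adjusted p = 0.000218 by limma). The block call was lost in a fit without an intensity trend (adjusted p = 0.089 by limma) and held in the other 5 combined settings, at 0.000218 to 0.0111. Without shNT replicate 2 the difference was 0.67, and without shNT replicate 1 it was 1.64.

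The dimmer Pou3f1 probe set, 1422068_at, gave a similar difference with a different pattern over arrays. It read 289 and 279 in shJmjd1c#3 cells and 469 and 161 in shJmjd1c#4 cells, against 93.6 and 130.1 in shNT cells. Here all 4 knockdown arrays lay above both controls, as did 11.2% of the 12684 genes tested. On the log2 scale 1422068_at differed by 1.23 (SE 0.37), with an adjusted p of 0.386 by limma over all probe sets, and it did not pass with the block (SE 0.32, adjusted p = 0.133 by limma). Both Pou3f1 probe sets were therefore higher with each hairpin, but the differences between same-numbered arrays ran from 0.28 to 2.15 at 1422068_at and from 0.87 to 1.61 at 1460038_at.

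Each hairpin was also compared with shNT by itself, and both comparisons share the same control arrays. Pou3f1 differed by 1.42 with shJmjd1c#3 (SE 0.37, adjusted p = 0.253 by limma; 0.000443 with the block) and by 0.89 with shJmjd1c#4 (SE 0.37, adjusted p = 0.388 by limma; 0.00242 with the block). The difference shJmjd1c#4 minus shJmjd1c#3 was -0.53 (SE 0.37, 95% interval -1.37 to 0.32, adjusted p = 0.868 by limma), and it did not pass with the block either (adjusted p = 0.108 by limma). A smaller effect of shJmjd1c#4 on Pou3f1 was thus not shown. The plot of signals by array gives the same values.

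**Figure D1:**
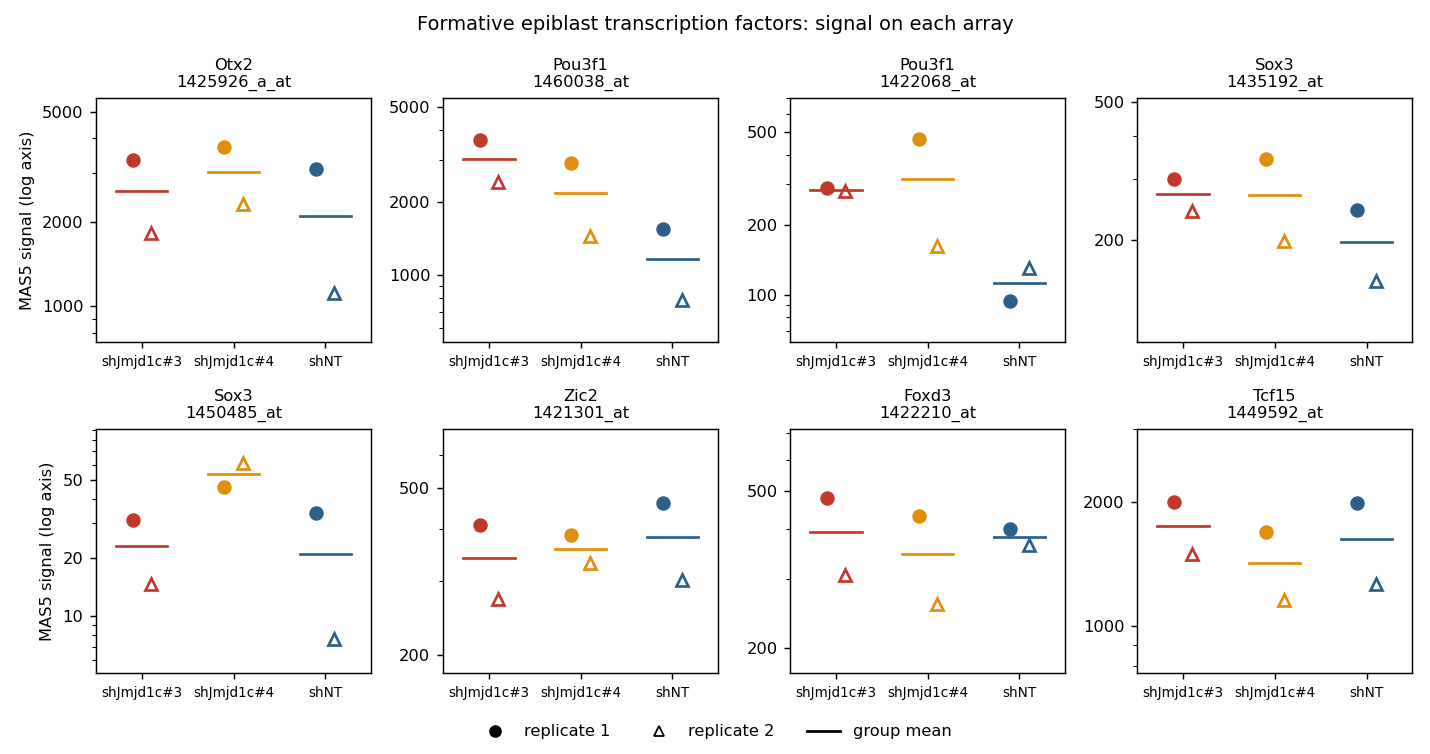
MAS5 signal (vertical log axis, its range set for each panel) of the 8 probe sets in shJmjd1c#3, shJmjd1c#4 and shNT cells, with filled circles for replicate 1, open triangles for replicate 2 and lines for the mean of 2 arrays. At Pou3f1 1460038_at the knockdown arrays lie between 1444 and 3622 and the shNT arrays at 784 and 1548. Knockdown and shNT arrays overlap at every probe set shown except Pou3f1 1422068_at.

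Otx2 was measured by 1 probe set, 1425926_a_at, and its replicates differed most among the 6 genes in shJmjd1c#3 and shNT cells but not in shJmjd1c#4 cells. It read 3339 and 1837 in shJmjd1c#3 cells and 3729.6 and 2331 in shJmjd1c#4 cells, against 3112 and 1112 in shNT cells. Replicate 1 of shNT lay above both replicate 2 arrays of the knockdown groups, so the groups overlapped, and the controls themselves differed 2.8-fold. The mean of both hairpins differed from shNT by 0.53 (SE 0.39, 95% interval -0.34 to 1.41, adjusted p = 0.646 by limma), with 0.41 for shJmjd1c#3 and 0.66 for shJmjd1c#4. The block value passed for the mean of both hairpins (SE 0.14, adjusted p = 0.0439 by limma) and for shJmjd1c#4 (adjusted p = 0.0366), and not for shJmjd1c#3 (adjusted p = 0.197). The call for the mean of both hairpins was lost with the block combined with quantile normalization, median centring, the mean of probe sets, no filter or no trend (adjusted p of 0.0623 to 0.28 by limma). Between same-numbered arrays Otx2 was higher in knockdown cells all 4 times, by 0.10 and 0.26 in replicate 1 and by 0.72 and 1.06 in replicate 2 for shJmjd1c#3 and shJmjd1c#4. Without shNT replicate 2 the difference was -0.20, and without shNT replicate 1 it was 1.27.

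Otx2 and Foxd3 had promoter windows in the RefSeq table used (GRCm38.p6, 250 bases before to 50 after an annotated start); Pou3f1, Sox3, Zic2 and Tcf15 are named only. Otx2 had 4 windows, from chr14:48662685-48662984 to chr14:48667595-48667894, and its 1 probe set does not tell which start was in use. The upstream-most window, 1 further Otx2 window and the Foxd3 window are shown because they contrast in base composition. Capitals mark matches on either strand to TAATCC (a homeodomain site of the Otx type), ATGCAAAT (the octamer bound by POU proteins), GTAAACA (a forkhead site), CATTGTT (a Sox site), CANNTG (the E-box bound by bHLH proteins) and TATAAA (the TATA-box); no match overlaps another.
Otx2 upstream-most start, chr14:48667595-48667894, minus strand: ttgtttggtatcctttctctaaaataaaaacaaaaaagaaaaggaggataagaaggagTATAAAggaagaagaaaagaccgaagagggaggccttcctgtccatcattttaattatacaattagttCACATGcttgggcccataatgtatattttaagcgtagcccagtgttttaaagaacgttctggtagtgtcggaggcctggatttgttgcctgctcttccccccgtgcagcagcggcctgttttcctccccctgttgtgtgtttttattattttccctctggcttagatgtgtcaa
Otx2 downstream start, chr14:48665060-48665359, minus strand: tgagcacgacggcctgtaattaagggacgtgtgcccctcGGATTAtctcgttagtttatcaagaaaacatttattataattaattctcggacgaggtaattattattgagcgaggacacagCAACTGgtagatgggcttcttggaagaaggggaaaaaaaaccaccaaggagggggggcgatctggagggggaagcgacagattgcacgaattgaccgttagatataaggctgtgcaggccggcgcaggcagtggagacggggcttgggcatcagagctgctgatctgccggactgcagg
Foxd3 start, chr4:99656049-99656348, plus strand: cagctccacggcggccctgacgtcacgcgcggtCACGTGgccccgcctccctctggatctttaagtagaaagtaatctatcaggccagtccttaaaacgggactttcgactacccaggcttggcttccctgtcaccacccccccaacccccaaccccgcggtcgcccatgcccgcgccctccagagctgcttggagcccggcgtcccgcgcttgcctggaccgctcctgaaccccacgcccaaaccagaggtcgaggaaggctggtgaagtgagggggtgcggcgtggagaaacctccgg
The upstream-most Otx2 window had 41.7% G and C and 6 CpG dinucleotides, the other 51% and 16, and the Foxd3 window 65.7% and 25. Among 32817 windows of this length, 81.6% had fewer CpGs than the Foxd3 window and 43.6% fewer than the upstream-most Otx2 window. The upstream-most Otx2 window held 1 TATA-box, found in 13.6% of all windows, and 1 E-box, found in 72.3%. The downstream Otx2 window held 1 Otx-type site, found in 7.06% of all windows, and 1 E-box. The Foxd3 window held 1 E-box, and no printed window held an octamer, a forkhead or a Sox match, which 1.74%, 3.65% and 3.78% of all windows did. These matches describe letters only.

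Sox3 was somewhat higher in knockdown cells and did not pass in any fit. Its brighter probe set, 1435192_at, read 299 and 242 in shJmjd1c#3 cells and 342 and 198 in shJmjd1c#4 cells, against 243 and 152 in shNT cells. The groups overlapped, although each knockdown array exceeded the control of the same number. The mean of both hairpins differed from shNT by 0.43 (SE 0.27, 95% interval -0.18 to 1.05, adjusted p = 0.58 by limma; 0.19 with the block). The differences with shJmjd1c#3 and shJmjd1c#4 were 0.45 and 0.41. Probe set 1450485_at of Sox3 was dim, at 31.2 and 14.6 in shJmjd1c#3 cells, 46.2 and 61.0 in shJmjd1c#4 cells, and 34.0 and 7.69 in shNT cells. Its mean lay below the filter, and its difference of 0.58 (SE 0.43) did not pass (adjusted p = 0.771 by limma over all probe sets).

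Zic2, Foxd3 and Tcf15 were close to the control level. Zic2 (1421301_at) read 408 and 272 in shJmjd1c#3 cells and 386 and 331 in shJmjd1c#4 cells, against 461 and 301 in shNT cells. Its knockdown values lay within or just below the span of the controls, with a difference of -0.11 (SE 0.23, 95% interval -0.63 to 0.41, adjusted p = 0.901 by limma). Foxd3 (1422210_at) read 479 and 307 in shJmjd1c#3 cells and 432 and 259 in shJmjd1c#4 cells, against 399.6 and 365 in shNT cells. Here the knockdown arrays fell on both sides of the controls, and the difference was -0.09 (SE 0.25, 95% interval -0.64 to 0.47, adjusted p = 0.931 by limma). Tcf15 (1449592_at) read 2001 and 1495 in shJmjd1c#3 cells and 1693 and 1153 in shJmjd1c#4 cells, against 1989 and 1267 in shNT cells. Only replicate 2 of shJmjd1c#4 lay below both controls, and the difference was -0.03 (SE 0.22, 95% interval -0.52 to 0.46, adjusted p = 0.973 by limma). For these 3 genes the intervals of the mean of both hairpins reach from -0.64 to 0.47, and differences within them are not excluded. With shJmjd1c#3 and shJmjd1c#4 the differences were -0.16 and -0.06 for Zic2, 0.01 and -0.18 for Foxd3, and 0.12 and -0.18 for Tcf15. The intervals for single hairpins reach from -0.82 to 0.69. In the mean of both hairpins the direction of each gene turned when single arrays were left out (-0.40 to 0.19 for Zic2, -0.26 to 0.0896 for Foxd3 and -0.35 to 0.29 for Tcf15).

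**Figure D2:**
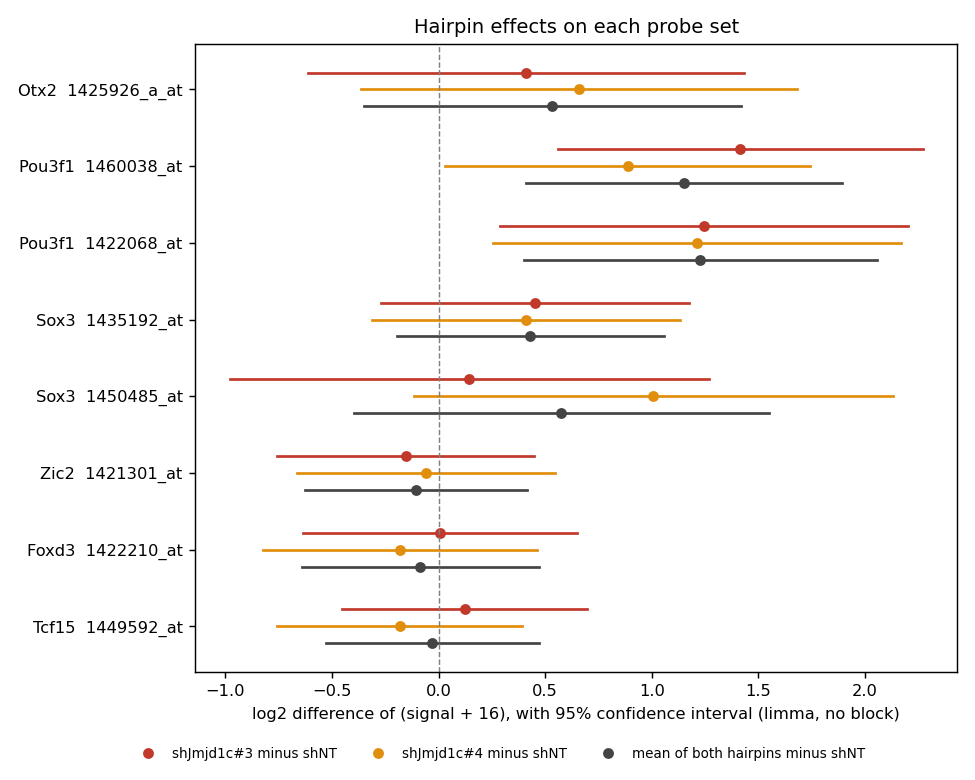
Log2 difference from shNT of each probe set (horizontal axis, log2 of signal + 16) for shJmjd1c#3, shJmjd1c#4 and the mean of both hairpins; points are limma estimates from the fit over all probe sets without the block, and lines are 95% intervals. The intervals of both Pou3f1 probe sets lie above 0, before any adjustment for the number of probe sets, and those of the other 6 probe sets include 0.

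In all, 0 of the 6 genes passed in the mean of both hairpins by limma without the block, where 0.725% of the 12684 genes did, and 1 (Pou3f1) had an unadjusted p under 0.05, as did 12.3% of all genes. The count was also 0 for shJmjd1c#3, for shJmjd1c#4 and for shJmjd1c#4 minus shJmjd1c#3, against 0.071%, 0.363% and 0% of all genes, with an unadjusted p under 0.05 for Pou3f1 alone in the first 2 of these and for none in the last, where 9.74%, 12.1% and 6.1% of all genes had one. With the block 2 of 6 passed in the mean of both hairpins (Pou3f1 and Otx2, both higher), 1 with shJmjd1c#3 and 2 with shJmjd1c#4, where 5.6%, 3.43% and 4.9% of all genes did. For shJmjd1c#4 minus shJmjd1c#3 the count with the block was 0, against 0.418%. Of the 6 genes, 3 had a positive difference in the mean of both hairpins, as did 51.7% of all genes. The median of the 6 was 0.20, beside 0.01 over all genes tested. Pou3f1, Otx2 and Sox3 were higher in all 4 same-numbered differences, as were 18.9% of all genes, and the other 3 genes were not.

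The 6 genes shared a difference between replicate numbers. Replicate 1 lay above replicate 2 at the brighter probe set of all 6 genes in all 3 groups, a pattern that 24.5% of all genes tested showed. The replicate 1 to replicate 2 ratio of Otx2 was 1.82 in shJmjd1c#3, 1.6 in shJmjd1c#4 and 2.8 in shNT cells. That of Pou3f1 was 1.49, 2.02 and 1.97, and that of Tcf15 was 1.34, 1.47 and 1.57 in the same order of groups. Averaged over the 3 groups on the log2 scale, the difference by replicate number was 1.00 for Otx2, 0.85 for Pou3f1, 0.55 for Sox3, 0.54 for Tcf15, 0.48 for Foxd3 and 0.45 for Zic2. For all of them except Pou3f1 it was larger than the difference between knockdown and shNT cells. The dimmer probe sets did not share the order, because Pou3f1 1422068_at was lower in replicate 1 of shNT and Sox3 1450485_at was lower in replicate 1 of shJmjd1c#4. The Gapdh ratio was lower in replicate 1 of every group, and the Actb ratio slightly so, as given above. The part of RNA integrity in the order of the replicates was not tested. In bulk RNA, more cells with a gene on and more RNA per cell cannot be told apart.

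**Figure D3:**
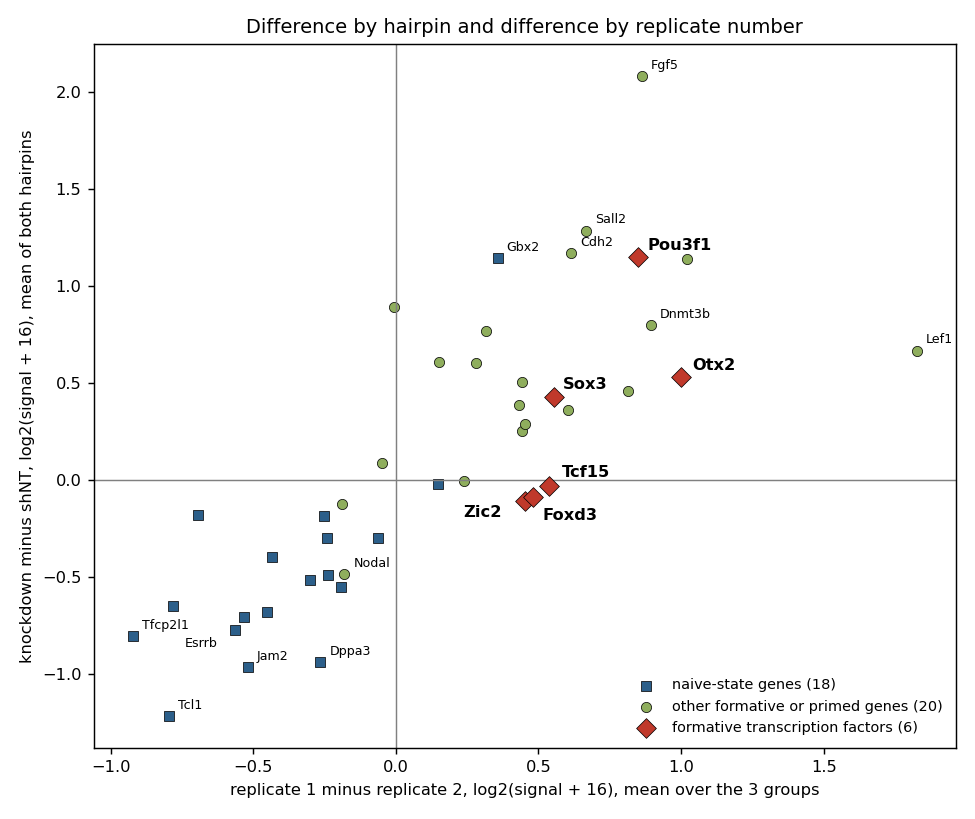
Each point is 1 tested gene, placed by its mean difference between replicates 1 and 2 over the 3 groups (horizontal, log2 of signal + 16) and its difference between knockdown and shNT cells (vertical, same scale). All 6 formative factors lie right of 0, from 0.45 for Zic2 to 1.00 for Otx2, and Pou3f1, Otx2 and Sox3 of the 6 lie above 0, while most naive-state genes lie at the lower left.

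Other genes of the formative or primed epiblast were taken from a list of 22, of which 20 were tested and the rest were not analysed here. Of the 20, 17 had a positive difference in the mean of both hairpins, against 51.7% of all genes, and the median was 0.56. By limma without the block 0 passed, with 11 at an unadjusted p under 0.05 against 12.3% of all genes, and with the block 11 passed as higher and 1 as lower, against 3.33% and 2.26% of all genes. Fgf5, a growth factor of the early postimplantation epiblast, read 189 and 89.9 in shJmjd1c#3 cells and 174 and 113 in shJmjd1c#4 cells, against 36.1 and 8.63 in shNT cells. It differed by 2.08 (SE 0.40, adjusted p = 0.0706 by limma, and 0.00142 with the block). Both shNT values of Fgf5, and of Wnt8a in the same list (35.9 and 38.6), lay below the filter, which these genes passed through their knockdown arrays. Counts and the median of this list can lean upward for this reason. The size of the Fgf5 difference depends on the 16 added to each signal, and the ratio of its mean signals was 6.33. Sall2, a zinc finger gene, differed by 1.29, Cdh2, which encodes N-cadherin, by 1.17, Pim2, a serine kinase gene, by 1.14 and the de novo DNA methyltransferase gene Dnmt3b by 0.80. The differences of Etv4, Sox11, Cldn6, Tead2, Sox4 and Dnmt3a ranged from 0.36 to 0.89, and these 11 genes passed with the block as Pou3f1 and Otx2 did. Nodal, the TGF-beta family ligand of the epiblast, was at -0.48 (adjusted p = 0.142 by limma; 0.00847 with the block). Replicate 1 lay above replicate 2 in all 3 groups for 13 of the 20, against 24.5% of all genes.

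Genes of the naive state were mostly lower in knockdown cells and in replicate 1. Of 18 tested, 1 was positive in the mean of both hairpins (Gbx2, 1.14), against 51.7% of all genes, and the median was -0.53. For 13 of the 18, replicate 1 was below replicate 2 in all 3 groups, against 18.8% of all genes. Dppa3 alone passed without the block, where 0.725% of all genes did, with a difference of -0.94 (SE 0.14, adjusted p = 0.0292 by limma). With the block 11 passed as lower, against 2.26% of all genes. These were Dppa3, Tcl1, Jam2, Tfcp2l1, Esrrb, Nr5a2, Klf2, Nr0b1, Klf4, Tet2 and Nanog at -1.21 to -0.40. Gbx2 alone passed as higher with the block, against 3.33% of all genes. Of 8 genes of general pluripotency, with a median of -0.08, 0 passed without the block. Sox2 alone had an unadjusted p under 0.05, as did 12.3% of all genes. It also passed with the block at -0.33 (adjusted p = 0.0131 by limma), where 2.26% of all genes passed as lower. Tdgf1, Lin28a and Sall4 differed by -0.19, 0.25 and -0.09 and Pou5f1 by -0.04.

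Close relatives of the 6 factors were mostly dim. Among Otx2 relatives, Otx1 read 2.46 to 14.8 in knockdown arrays and 4.83 and 18.1 in shNT arrays, and Crx at most 50.5, both below the filter. Of the POU3 genes, Pou3f2 and Pou3f4 were below the filter, and Pou3f3 read 54.3 ± 11.1 in knockdown cells (SD, n = 4) and 43.2 ± 27.1 in shNT cells (SD, n = 2), a difference of 0.31 (SE 0.36). The SoxB1 gene Sox2 read 12770.2 ± 604 in knockdown cells (SD, n = 4) and 16007 ± 88.2 in shNT cells (SD, n = 2), opposite in sign to Sox3, with all 4 knockdown arrays below both controls, as in 9.54% of all genes. Sox1 differed by -0.19 (SE 0.43) in the mean of both hairpins, with opposite signs for shJmjd1c#3 (-0.93) and shJmjd1c#4 (0.54), and by 1.47 between hairpins (SE 0.50, adjusted p = 0.712 by limma; 0.124 with the block). Zic5, a further Zic gene, read 2226 ± 472 in knockdown cells and 1841 ± 252 in shNT cells, a difference of 0.25 (SE 0.19, adjusted p = 0.66 by limma), and Zic1 and Zic4 were below the filter. The forkhead genes Foxd1 and Foxd2 differed by -0.30 and 0.55 at signals near the filter, and Foxd4 was below it. Both shNT values of Foxd2 (27.1 and 29.4) lay below the filter, which it passed through its knockdown arrays. Scx, a bHLH gene related to Tcf15, differed by -0.51 (SE 0.43).

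Partners of Tcf15 were measured because Id proteins oppose bHLH factors and E proteins pair with them. Id3 read 849 and 1190.3 in shJmjd1c#3 cells and 992 and 1089 in shJmjd1c#4 cells, against 425 and 788 in shNT cells. All 4 knockdown arrays of Id3, and likewise of Id2, lay above both controls, as in 11.2% of all genes. The Id3 difference of 0.80 (SE 0.24, adjusted p = 0.214 by limma) passed with the block (adjusted p = 0.0083 by limma), beside a Tcf15 difference near 0. With the block 3.33% of all genes passed as higher. Id1, Id2 and Id4 differed by 0.21, 0.28 and -0.19, and the E protein genes Tcf3, Tcf4 and Tcf12 by 0.06, 0.21 and 0.11, none of which passed in either fit, and the median of these 7 was 0.21. FGF signalling through ERK drives cells out of the naive state, and 11 genes of that pathway were tested, with a median of 0.31. They include Fgf5, which passed the filter through its knockdown arrays. Dusp6, an ERK phosphatase and target, passed at 0.80 (adjusted p = 0.0225 by limma), where 0.725% of all genes passed. With the block 4 passed as higher, against 3.33% of all genes: Dusp6, Fgf5, Etv4 and the receptor gene Fgfr2 (0.78). Egr1 passed with the block with shJmjd1c#3 and in shJmjd1c#4 minus shJmjd1c#3, at 0.45 and -0.53, where 3.43% and 0.418% of all genes passed.

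Markers of other cell types in which some of these factors are also expressed were examined. Over all genes tested, 51.7% were positive in the mean of both hairpins. In that comparison 0.725% of all genes passed, and with the block 3.33% passed as higher. Of 17 neural progenitor genes 9 were tested and 7 were positive with a median of 0.26, Nes (1.37, adjusted p = 0.0246 by limma) passing and Meis1 (1.13) passing with the block, while Tubb3 and Six3 were at -0.54 and 0.84. Their summed signal was 2426 to 3043 in knockdown arrays and 2295 and 1853 in shNT arrays. In that sum the mean signal of Nes was 674 in knockdown and 251 in shNT cells. That of Meis1 was 288 and 120, and that of Tubb3 461 and 672. Olig2 read at most 27.4, and Sox1, a defining neural gene, was at -0.93 with shJmjd1c#3 and 0.54 with shJmjd1c#4. Of 11 neural crest genes 7 were tested and 6 were positive with a median of 0.76. Ets1 passed at 1.51 (adjusted p = 0.04 by limma), and Twist1, Msx2 and Pax3 were at 0.78, 0.78 and 0.60. The summed signal of this list was 819 to 1128 in knockdown arrays and 499 and 454 in shNT arrays, and Sox10 read 91.6 or less. In that sum the mean signal of Ets1 was 402 in knockdown and 127 in shNT cells, and that of Tfap2a 52.4 and 56.9. Of 13 paraxial mesoderm genes 6 were tested and 4 were positive with a median of 0.40. Lfng passed with the block at 1.53, and Foxc1 and Dll1 were at 0.99 and 0.20. Tbx6 and Mesp2 were at -0.08 and -0.0017, with Tbx6 at -0.46 with shJmjd1c#3 and 0.31 with shJmjd1c#4. The summed signal of this list was 768 to 937 in knockdown arrays and 722 and 596 in shNT arrays. Msgn1 and Mesp1 were below the filter, and Meox1 read 25.8 or less. Of 6 endoderm genes 5 were tested and 4 were positive with a median of 0.37, Dab2 passing with the block at 0.79, and Sox17, Sox7 and Gata6 at 0.96, 0.37 and 0.15. By hairpin, the median of this list was 0.13 with shJmjd1c#3 and 0.91 with shJmjd1c#4, Sox7 was at -0.18 and 0.91 and Gata6 at -0.35 and 0.65. The summed signal was 520.4 and 478 in shJmjd1c#3 cells and 1348 and 914 in shJmjd1c#4 cells, against 556 and 404 in shNT cells. Dab2 also passed with the block with shJmjd1c#4 (1.35) and in shJmjd1c#4 minus shJmjd1c#3 (1.11), and Sox17 with shJmjd1c#4 (1.69). With the block 4.9% of all genes passed with shJmjd1c#4 and 0.418% in shJmjd1c#4 minus shJmjd1c#3. Of 16 fibroblast genes 10 were tested and all 10 were positive with a median of 0.83, Col3a1 passing at 2.01 (adjusted p = 0.0336 by limma), Dcn at 2.20 passing with shJmjd1c#4 (adjusted p = 0.0456 by limma), Twist1 and Fstl1 at 0.78 and 0.29, and a summed signal of 3106 to 4043 in knockdown arrays and 2701 and 2492 in shNT arrays. Fstl1 made up the largest part of the fibroblast sum, at 1876 to 2482 in knockdown arrays and 1910 and 1685 in shNT arrays. In the mean of both hairpins Dcn was at 1.67 (adjusted p = 0.0504 by limma, and 0.018 with the block). With shJmjd1c#4, where Dcn passed without the block, 0.363% of all genes did. The filter used the mean over all 6 arrays, so genes dim in shNT cells were tested only where knockdown arrays were brighter. Both shNT arrays read below the filter at Dcn (10.9 and 11.7), Col3a1 (25.6 and 37.6) and Lfng (11.1 and 32.1). The same held for Foxc1, Pax3 and Msx2. Counts and medians of the tested markers can lean upward for this reason. Most of the tested markers had positive differences, as Pou3f1, Otx2 and Sox3 did, and their part in the differences of those factors was not tested.

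For each factor the 3 genes with the closest pattern over the 6 arrays were found by the root mean square (RMS) difference of log2 values centred on each gene's own mean. For Otx2 they were Mrc2 (RMS 0.10), Ttc9 (0.11) and the growth factor gene Fgf15 (0.12), against a range of 1.73 for Otx2 itself. For Pou3f1 they were Pim2 (0.19), Scin (0.20) and Sp8 (0.20), against a range of 2.18, and Scin and Sp8 had signals of 91.3 or less. For Sox3 they were Spry2, an inhibitor of FGF signalling (0.06), Pphln1 and Plekha1 (0.07 each), against a range of 1.10. Spry2 read 3234 and 2856 in shJmjd1c#3 cells and 3586 and 2233 in shJmjd1c#4 cells, against 2738 and 1878 in shNT cells. The closest genes to Zic2 were Mfsd8, Cep68 and Pnma2, to Foxd3 Aph1a, Zkscan8 and Prph, and to Tcf15 Rbm45, Slc35a2 and Sntb2, all with an RMS of 0.06 to 0.08 against ranges of 0.73 to 0.85. Pim2 was in the list of formative genes above and Spry2 in that of the FGF pathway.

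**Figure D4:**
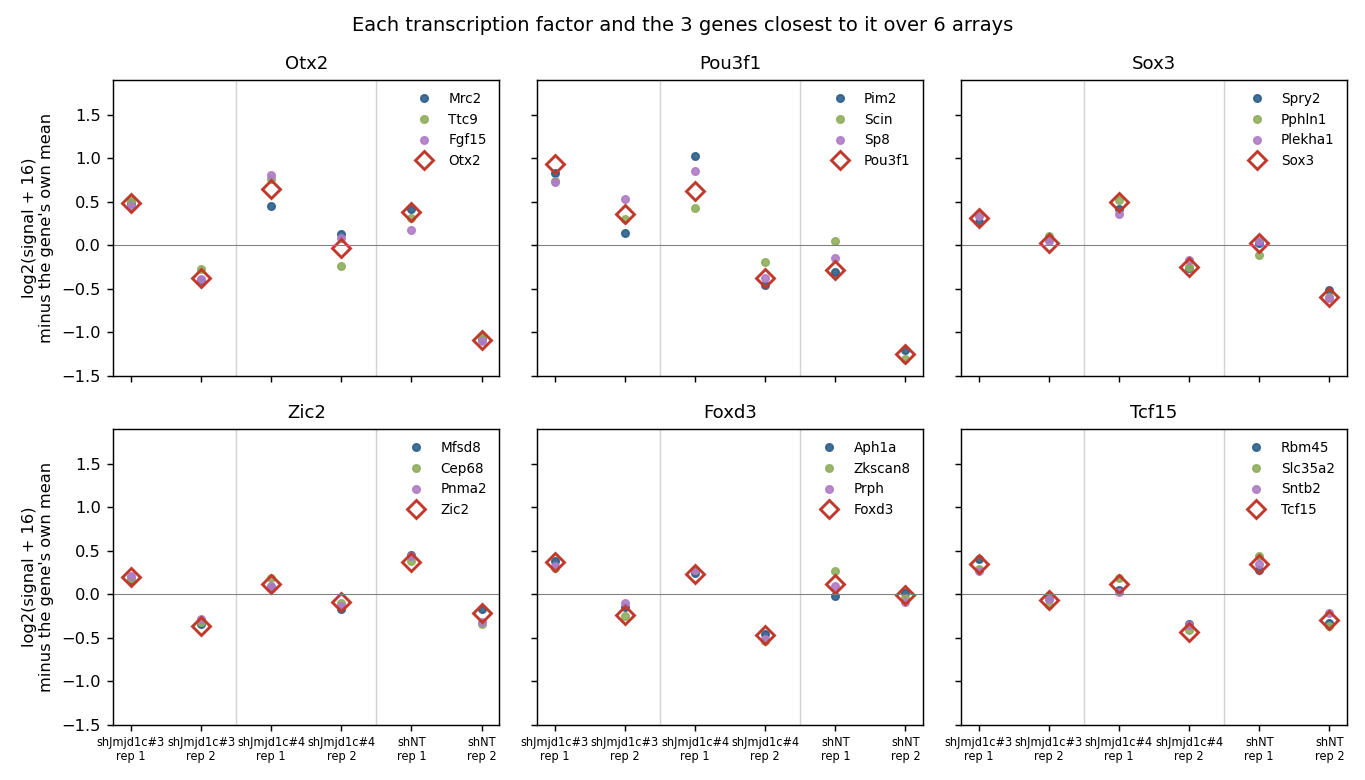
Log2 of signal + 16 minus each gene's own mean (vertical) on the 6 arrays (horizontal) for each factor, drawn as open diamonds, and its 3 closest genes, drawn as dots. Otx2, Pou3f1 and Sox3 have their lowest value on shNT replicate 2. The 3 genes closest to each of them do so too, having been chosen by their match over these same arrays. In every group replicate 1 lies above replicate 2 for all 6 factors.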

How the data were processed

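Per the labels' protocols, 6 ug of RNA from each sample went onto its own Affymetrix mouse expression array. The deposited values are signal intensity on a linear scale, made by the authors with MAS5 per the submitters' processing notes, whose version no source used here gives. Each array had been scaled to 500 (mean without the outermost values, 96% kept), so the deposited intensity was used unchanged. Of 45101 probe sets, 64 were controls; 34945 had 1 gene symbol in the platform annotation, 932 several and 9160 none. Only the first kind was named (34754 matched a current gene by Entrez ID).

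Signals were transformed to log2(signal + 16). The brightest probe set of each of 18193 genes was kept, and the 12684 genes at or above the 40th percentile of mean log2 signal were tested with limma 3.58.1 in R 4.3.3 (3 group means over 6 arrays, intensity trend, residual df 3 and prior df 5.96, 2-sided, Benjamini-Hochberg at 0.05 over all genes). Every member probe set was also tested over all 45037 probe sets without controls. Comparisons were the mean of both hairpins, each hairpin against shNT, and shJmjd1c#4 minus shJmjd1c#3. Errors of signals are SDs, and errors of log2 differences are limma standard errors. Arrays have no read depth, and their number limits the precision.

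Same-numbered arrays deviated together from their group means (correlations across genes of 0.223 to 0.302 in the 3 pairs of groups). The replicate numbers of the titles were therefore taken to pair the arrays, an inference from these data that no label states. Such correlations cannot show pairing, because with 2 arrays in a group, numbers given in any order could line up. All calls with the block rest on this inference. Values with this block (residual df 2, prior df 9.34) are given where they change a call. Alternatives covered the pseudocount, filter, scaling, trend, probe set choice, block and each array left out. The fit without the block was tested on simulated data with independent noise, and the fit with the block was not tested in this way. The members and lists were chosen with earlier results of these data known, so no list is independent evidence. Named genes are the members with their closest 3 genes each, Jmjd1c, listed relatives, Id and E protein genes, and from each list the genes past the threshold in either fit and the 4 with the smallest p in the mean of both hairpins; other named markers were chosen after their values were seen.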

Additional observations from a re-analysis of the deposited data

How the results depend on the processing

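The count of 0 member genes past the threshold held in the alternatives without the block, leaving out each array included (0 to 0 for each of the 4 comparisons). With the block it was 2 in the mean of both hairpins, 1 with shJmjd1c#3, 2 with shJmjd1c#4 and 0 between hairpins. In combinations chosen after seeing the data, the block with a pseudocount of 64 gave 2, 1 and 2. The block with quantile normalization, with median centring, with the mean of probe sets or without the filter gave 1, 1 and 1, and without a trend 0, 0 and 0; the cause was not tested. Over all genes, 92 passed in the mean of both hairpins, against 4 (without shNT replicate 2) to 43 (without shNT replicate 1) with 1 array left out, 0 without a trend, 36 without the filter, 34 with the mean of probe sets, 19 over all probe sets, 59 without _x_at and _s_at probe sets and 710 with the block (0 to 873 with the block and a further setting). With shJmjd1c#3 the 9 genes became 435 with the block, at most 1 with an array left out and 0 with a pseudocount of 1, a filter at the 60th percentile, no filter, no trend, the mean of probe sets or all probe sets. With shJmjd1c#4 the 46 genes became 622 with the block, 3 (without shJmjd1c#4 replicate 1) to 39 with an array left out, 6 without a trend, 21 without the filter, 27 with the mean of probe sets and 7 over all probe sets. Between hairpins 53 passed with the block.

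Pou3f1 kept its direction in every alternative run, as did Otx2 except without single arrays. Foxd3 with shJmjd1c#3 (0.01) was at -0.0039 with quantile normalization and -0.0336 with median centring, with or without the block. Sox3 between hairpins (-0.04) was at 0.41 with the mean of its probe sets, with or without the block, because 1450485_at ran the other way. Leaving out 1 array turned these differences. In the mean of both hairpins the ranges were -0.20 to 1.27 for Otx2, -0.26 to 0.0896 for Foxd3, -0.35 to 0.29 for Tcf15 and -0.40 to 0.19 for Zic2. With shJmjd1c#3 they were -0.33 to 1.14 for Otx2, -0.30 to 0.32 for Foxd3, -0.20 to 0.44 for Tcf15 and -0.45 to 0.14 for Zic2. With shJmjd1c#4 they were -0.077 to 1.39 for Otx2, -0.53 to 0.17 for Foxd3, -0.50 to 0.14 for Tcf15 and -0.35 to 0.24 for Zic2. Between hairpins they were -0.18 to 0.68 for Otx2, -0.54 to 0.17 for Foxd3, -0.41 to 0.33 for Sox3 and -0.18 to 0.38 for Zic2. Signals near the filter, such as Sox3 1450485_at, limit what can be said of dim probe sets.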

Other observations

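Among the other formative genes, some of those not named above differed far more by replicate number than by hairpin; they were chosen after their values were seen. Lef1, a transcription factor gene of the Wnt pathway, read 1236 and 527 in shJmjd1c#3 cells and 1566 and 341 in shJmjd1c#4 cells, against 1017 and 221 in shNT cells. Its mean difference between replicates 1 and 2 was 1.83 on the log2 scale, against 0.67 between knockdown and shNT cells (SE 0.68, adjusted p = 0.764 by limma; 0.0548 with the block). Etv5, an ETS factor gene downstream of FGF signalling, was at 0.24 by replicate number and -0.0036 between knockdown and shNT cells (adjusted p = 0.994 by limma), while its relative Etv4 was at -0.0082 and 0.89. By group, replicate 1 of Etv4 was above replicate 2 by 0.25 in shJmjd1c#3 and 0.42 in shJmjd1c#4 cells, and differed from it by -0.69 in shNT cells. The Etv4 difference between knockdown and shNT cells passed with the block only (adjusted p = 0.171 by limma; 0.0346 with the block).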
